A study of Mus musculus with 2 samples.

Results

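Chromosome 11 carried 1662 of the 19647 Runx3 peaks (8.46%) that the authors listed for mouse splenic natural killer (NK) cells, and these 1662 peaks are described here. They were chosen by chromosome name alone, in coordinates of the mouse build mm9, and no listed peak of the chromosome was left out by a filter. The chromosome itself was singled out because the list holds more peaks per Mb on it than on any other chromosome it names, so its counts are given as a description, with no test. All other values below come from the same list and are also descriptive.

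The peaks come from 1 chromatin immunoprecipitation sequencing (ChIP-seq) library made with a home-made polyclonal antibody against Runx3, and a second library made with non-immune rabbit serum (NIS) served as control. Both used splenic NK cells of wild-type ICR mice injected with complexes of IL-15 and its receptor alpha chain (IL-15/Ra), 2 times with 2 days between. The cells were enriched by negative selection and sorted for NKp46, a surface receptor that marks NK cells. No untreated mice and no Runx3-deficient mice were among the samples, whether several mice were pooled is not stated, and each antibody had 1 library, so there is no spread between animals. Values of the control library were not used here. Since the list holds positions only, read depth per peak is unknown and the identity of the sorted cells was not checked.

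Runx3 belongs to the Runt-domain transcription factors, which bind a short DNA motif together with the partner protein Cbfb. In NK cells and cytotoxic T cells it is known as a regulator of maturation and effector genes, and it commonly occupies enhancers and promoters that lie near other bound sites. Mouse chromosome 11 is known as a gene-rich chromosome. It carries many genes of lymphocyte biology, among them Tbx21 (the transcription factor T-bet), Stat3, Stat5a and Stat5b (mediators of cytokine signals), the chemokine genes Ccl3, Ccl4 and Ccl5, the type 2 cytokine genes Il4, Il5 and Il13, and Ikzf1 (a transcription factor of lymphoid development). No peak was assigned to any of these genes, because no annotation of mm9 was used, and no sequence is printed for the same reason.

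The 1662 peaks lay between position 3023133 and position 121666084, a span of 118.6 Mb. Their density was 14.01 peaks per Mb (95% Poisson interval 13.3 to 14.7, counting error only), against 7.77 per Mb over the 18 other autosomes, a ratio of 1.803. Chromosome 19 came next with 11.9 per Mb, and the lowest autosome, chromosome 3, had 5.44. At the density of the other autosomes the span would have held 922 peaks, so the excess came to 740 peaks. Peaks covered 1.14 Mb of DNA, or 0.962% of the span, against 0.525% on the other autosomes.

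By rank of bin, the excess was not confined to a few dense bins, although dense bins were more frequent than elsewhere. The chromosome was divided into 119 bins of 1 Mb, which held a median of 10 peaks, whereas the 2292 bins of the other autosomes held a median of 4. On chromosome 19, the autosome with the next highest median, it was 8. The densest single bin of chromosome 11 held 55 peaks, and 4 other autosomes had a fuller one, up to 80 peaks on chromosome 10. Of the 119 bins, 79 (66.4%, exact binomial 95% interval 57.2 to 74.8%) held more than the median of the other autosomes, compared with 48.9% of those autosomes' own bins.

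The contrast grew with the threshold. Bins with 20 or more peaks made up 30.3% (36 bins), against 10.9% of the bins on the other autosomes, and bins with 30 or more 16.0% (19 bins), against 3.93%. At the other end, 19 bins (16.0%) held no peak, against 27.1%. This was the lowest share of empty bins among the 19 autosomes, with chromosome 19 close behind at 16.9% and chromosome 14 highest at 36.2%.

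**Figure D1:**
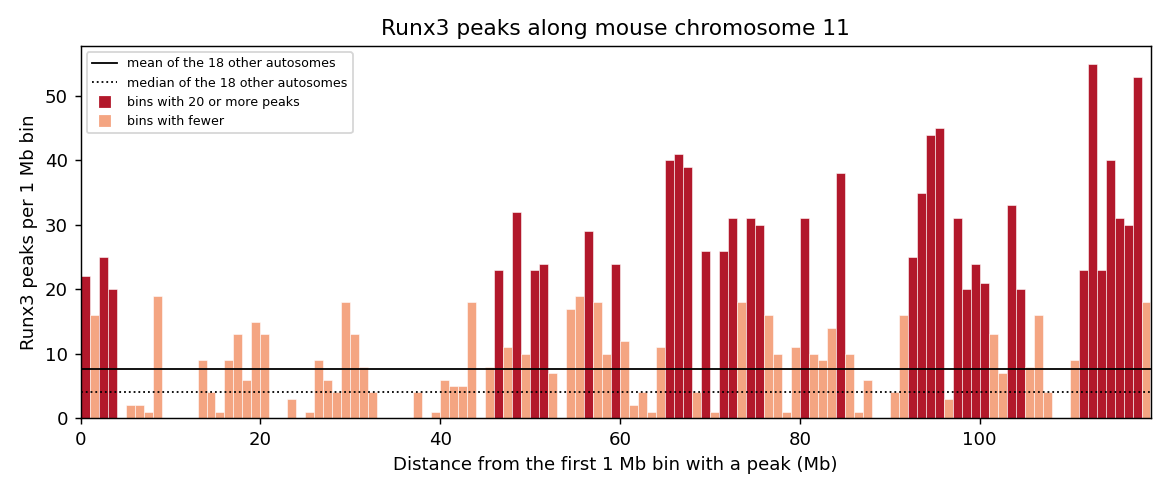
Runx3 peaks in each 1 Mb bin of chromosome 11, plotted against the distance from the first bin that holds a peak (Mb); dark bars are bins with 20 or more peaks, and the lines mark the mean and median of the 18 other autosomes. The 36 dark bars lie mostly in the later part of the chromosome, and the highest bar reaches 55 peaks.

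When the bins of each chromosome were sorted by their count and compared at the same rank, chromosome 11 was highest, alone or tied, at each of the 19 percentiles examined in steps of 5%, although at the 5th, 10th and 15th every autosome was at 0. It was highest alone at 13 of them, from the 35th percentile (5.3 peaks, against 5 on chromosome 19) to the 95th (40 peaks, against 38.4 on chromosome 19). The upper quartile was 23 peaks, against 12 for the other autosomes together and 19 for chromosome 19. At the lower quartile the chromosome held 2.5 peaks, the same as chromosome 19, and the other autosomes together held 0.

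**Figure D2:**
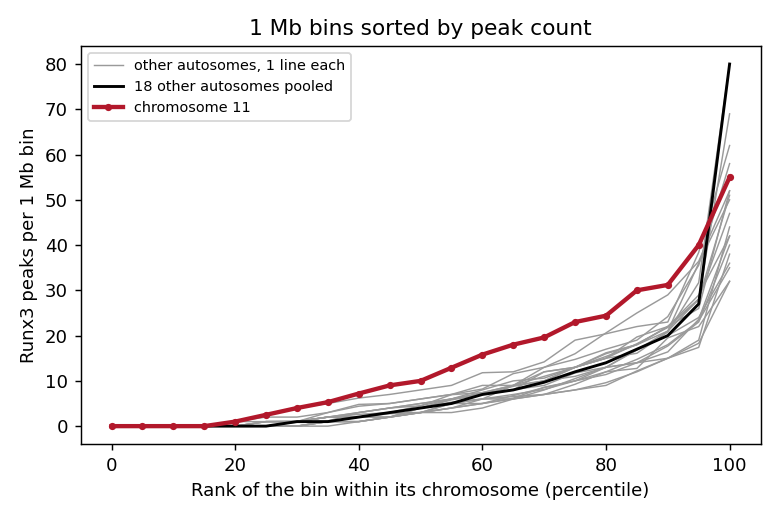
Runx3 peaks per 1 Mb bin (vertical axis) at each rank of the bin within its chromosome (horizontal axis, percentile); the red line is chromosome 11, each grey line is another autosome and the black line is the 18 other autosomes pooled. The red line lies at or above each grey line up to the 95th percentile, where it stands at 40 peaks, and ends at 55, below the 80 of the fullest autosomal bin.

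Subtracting the pooled curve of the other autosomes from that of chromosome 11 rank by rank splits the excess, which over whole bins came to 744 peaks. The densest 10% of bins supplied 17.8% of it, or 133 peaks, and the 10% below them supplied 19.4%. The densest 50% of bins supplied 80.4%. Ranks from the 20th to the 50th percentile still added 26.5, 44.8 and 69.6 peaks in successive steps of 10%. Empty and nearly empty bins, below the 20th percentile, added 4.8 peaks in all.

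The next densest autosomes were split in the same way, each against the autosomes other than itself and chromosome 11. The densest 10% of bins supplied 50.7% of the excess of chromosome 7, 30.9% of that of chromosome 17 and 23.5% of that of chromosome 19. At this cut chromosome 11 had the lowest share of the 4, but at wider ones chromosome 19 was lower. The densest 20% of bins supplied 36.3% of the excess on chromosome 19, against 37.2% on chromosome 11, and the densest 50% supplied 75.4%, against 80.4%. These shares have no replicate error, and their order was not tested.

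Removing the densest bins from every chromosome widened the ratio, while the difference in peaks per bin narrowed. With all bins kept the means were 13.97 and 7.71 peaks per bin. Without the densest 10% of 1 Mb bins, chromosome 11 kept 10.9 peaks per bin and the other autosomes 5.30, a ratio of 2.06 (conditional binomial 95% interval 1.94 to 2.19, which treats peaks as independent). Without the densest 20% the ratio was 2.24, and without the densest 50% it was 3.19, on 3.37 peaks per bin against 1.06. Chromosome 11 ranked first of the 19 autosomes each time, and chromosome 19 second. When bins were removed from chromosome 11 alone, its mean fell to that of the other autosomes only after the 30 densest bins (25.2% of its bins, 982 peaks) had been taken out. Removing the 9 densest brought it below chromosome 19.

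**Figure D3:**
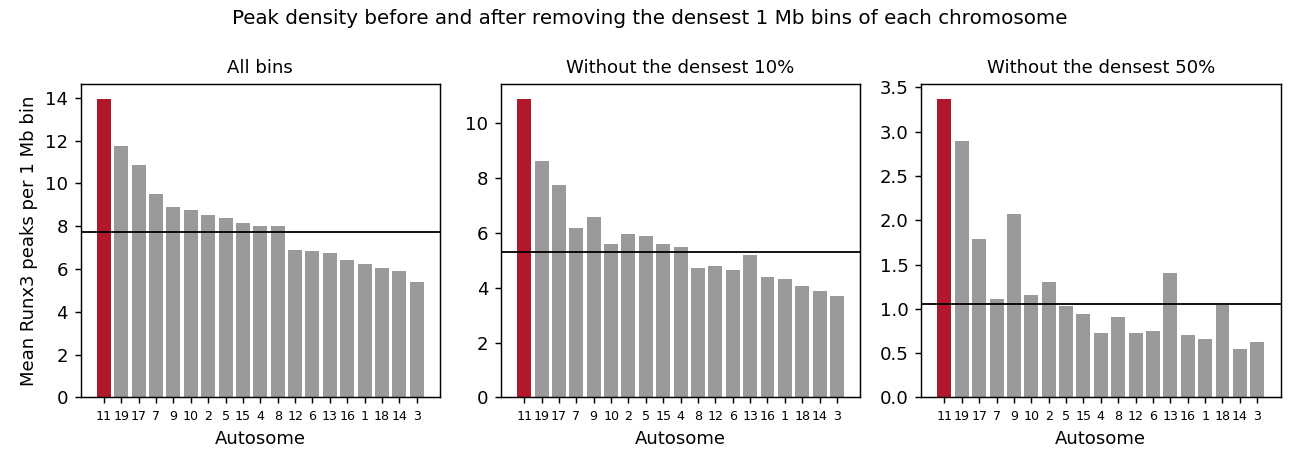
Mean Runx3 peaks per 1 Mb bin on each autosome (bars, ordered by the first panel) for all bins, without the densest 10% and without the densest 50% of the bins of each chromosome; the line is the mean of the 18 other autosomes. Chromosome 11, in red, is the highest bar in each panel, at 13.97, 10.9 and 3.37 peaks per bin.

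Counts of the 1 Mb bins were also less uneven on chromosome 11 than on any other autosome by 2 measures. Both ignore the order of the bins, so they do not describe evenness by position. The coefficient of variation of its 1 Mb bins was 0.946, against 0.993 on chromosome 13, the next lowest, and 1.41 on chromosome 8, the highest. The Gini coefficient, which is 0 when each bin holds the same number, was 0.516, against 0.532 on chromosome 19 and 0.660 on chromosome 8. The densest 12 bins, 10% of the chromosome, held 495 peaks or 29.8% of its total, and on the other autosomes singly this share ran from 30.7% to 46.8%. It took 24 bins (20.2%) to hold 50% of the peaks, and chromosome 19 alone needed a larger share of its bins (20.3%). A coefficient of variation tends to fall as counts rise, and the ratio of variance to mean, 12.5, ranked 8 of the 19.

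By position, most of the excess lay in the later part of the chromosome. Beyond the midpoint of the span, at 62.3 Mb, lay 1142 peaks (68.7%), and before it 520. The density was 19.3 per Mb beyond the midpoint, against 8.94 in the corresponding parts of the other autosomes and at most 12.8 in any of them (chromosome 15). Before the midpoint it was 8.77 per Mb, against 6.60, which ranked 4 of the 19 autosomes, and chromosome 17 was highest there with 14.4. Against the density of the other autosomes over their whole span (7.77 per Mb), the part beyond the midpoint supplied 92.0% of the 740 excess peaks. This share includes the higher density of the other autosomes beyond their own midpoints (8.94 per Mb, against 6.60 before). The share against the corresponding parts would be lower and was not computed.

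A similar lean toward the later part was found on other autosomes. The share of peaks beyond the midpoint was higher on 5 of them (chromosomes 3, 4, 8, 12 and 15, up to 77.5%) than on chromosome 11. It was below 50% on chromosomes 13, 14, 16, 17 and 19.

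The step lay near 50 Mb, a boundary read from the profile after its values were seen. Before 50 Mb the chromosome held 313 peaks in 47.0 Mb, 6.66 per Mb (95% Poisson interval 5.95 to 7.44), which was 0.858 times the density of the other autosomes. After it, 1349 peaks in 71.7 Mb gave 18.8 per Mb (17.8 to 19.9), 2.42 times that density. In segments of 10 Mb, the first (from the first peak to 10 Mb) held 12.5 peaks per Mb. The 4 segments from 10 to 50 Mb held 4.3, 6, 5.3 and 7 per Mb, each below the 7.77 of the other autosomes, which is a mean. In order, they exceeded 32.3%, 49.6%, 42.9% and 55.8% of the complete 10 Mb segments on the other autosomes.

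From 50 Mb onward each segment exceeded that value. The 7 complete segments held between 135 peaks (80 to 90 Mb) and 222 peaks (70 to 80 Mb), while the median of the 226 complete segments on the other autosomes was 62 and their upper quartile 104. Of the 20 fullest segments on all autosomes, 6 were on chromosome 11. The remainder from 120 Mb to the last peak held 71 peaks in 1.67 Mb, 42.6 per Mb. Leaving out each of the 13 segments in turn left between 13.3 and 14.9 peaks per Mb. The chromosome was chosen for its density, so this range is a description and no support for its rank.

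**Figure D4:**
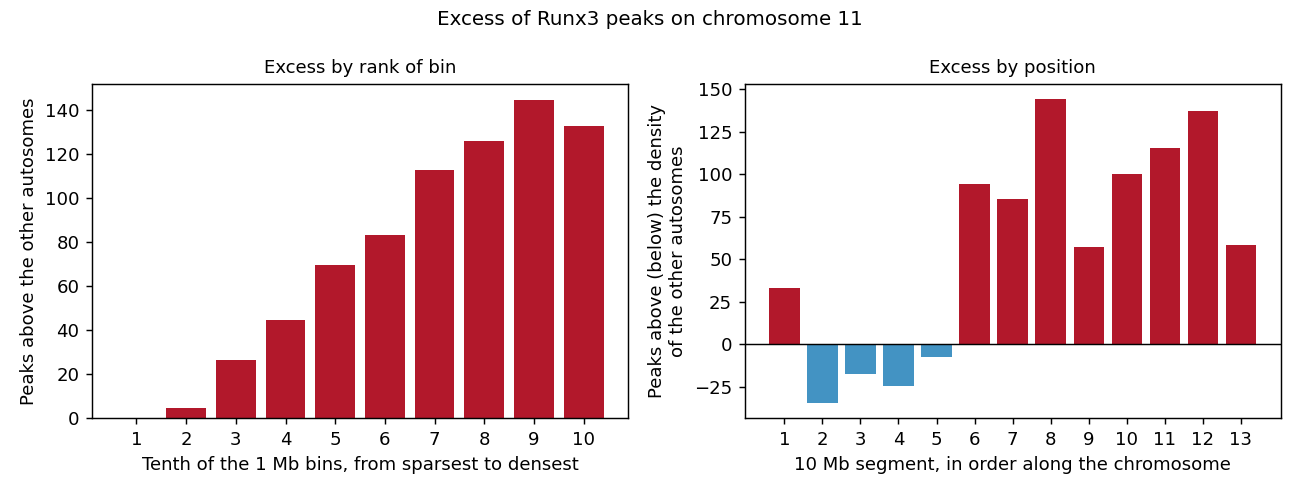
Left, peaks of chromosome 11 above the other autosomes in each 10% of the 1 Mb bins, sorted from sparsest to densest; right, peaks above or below the density of the other autosomes in successive 10 Mb segments along the chromosome. On the left the bars rise to 145 peaks and the densest group reaches 133; on the right segments 2 to 5 are below 0 and segments 6 to 13 are above it, up to 144 peaks.

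Bins beyond the midpoint held a median of 17 peaks, against 6 in the matching bins of the other autosomes and at most 11 on any (chromosome 15). Of these 60 bins, 4 (6.67%) were empty, against 24.0%; they formed runs from 91 to 93 and from 111 to 113 Mb. A further 28 bins (46.7%) held 20 or more, against 12.9%. Before the midpoint the 59 bins had a median of 6 peaks, which ranked 3 of the 19, and 15 of them (25.4%) were empty, against 30.2%.

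The 10 fullest 1 Mb bins together held 430 peaks, 25.9% of the chromosome, and lay between 68 and 121 Mb. The bin from 115 to 116 Mb held 55 peaks (95% Poisson interval 41.4 to 71.6) and exceeded 99.8% of the bins on the other autosomes. It was followed by 120 to 121 Mb with 53 peaks (39.7 to 69.3), 98 to 99 Mb with 45 (32.8 to 60.2) and 97 to 98 Mb with 44 (32.0 to 59.1). The bin from 69 to 70 Mb held 41 peaks, those from 68 to 69 Mb and from 117 to 118 Mb held 40 each, and those from 70 to 71, 87 to 88 and 96 to 97 Mb held 39, 38 and 35. The intervals of the first and the last of these 10 overlap, which by itself does not decide their order, and the order was not tested. Peaks covered between 2.32% and 3.85% of each bin.

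Dense bins adjoined one another in 9 runs of at least 2 bins with 20 or more peaks each, which together took in 28 of the 36 dense bins. The longest run reached from 114 to 121 Mb and held 255 peaks, 36.4 per Mb. Runs of 4 Mb lay from 95 to 99 Mb (149 peaks) and from 100 to 104 Mb (96 peaks), and a run of 3 Mb from 68 to 71 Mb held 120 peaks, 40 per Mb. Shorter runs of 2 Mb lay from 5 to 7 Mb (45 peaks), 53 to 55 Mb (47), 74 to 76 Mb (57), 77 to 79 Mb (61) and 106 to 108 Mb (53). Of the other autosomes, chromosome 19 also had a run of 7 Mb (218 peaks), and chromosome 7 had 7 runs of 2 or more bins.

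Among bins with fewer than 20 peaks, the mean per bin was also higher on chromosome 11. The 83 bins with fewer than 20 peaks averaged 6.67, against 5.06 on the other autosomes, a ratio of 1.32, and single autosomes ran from 3.88 to 6.36. These means are over the bins left, 83 of 119 here and 2042 of 2292 elsewhere. They do not give the share of the excess in such bins. The 36 dense bins were 2.77 times as frequent as elsewhere and averaged 30.8 peaks, against 29.3. These close means do not show how the dense bins divided. Bins with 20 to 29 peaks made up 14.3% of all bins, against 6.98%, and those with 30 or more 16.0%, against 3.93%. The 36 dense bins held 1108 peaks, 66.7% of the chromosome, and this share was next highest on chromosome 17 at 62.6%.

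At 100 kb the excess came from more occupied bins and, less so, from fuller ones. A peak lay in 539 of the 1187 bins (45.4%, exact binomial 95% interval 42.5 to 48.3%), against 31.0% on the other autosomes, 42.9% on chromosome 19 and 25.7% on chromosome 3. An occupied bin held 3.08 peaks, against 2.50, and chromosome 7 came close with 3.04. The ratios of 1.46 for occupied bins and 1.23 for peaks within them multiply to 1.804, and on a log scale the first made up 64.6% of the product. The order depended on the bin size: at 1 Mb the ratio was 1.15 for occupied bins and 1.57 for peaks within them, and the first made up 23.9%.

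Bins of 100 kb with 1 peak were 1.16 times as frequent as on the other autosomes, those with 2 to 4 peaks 1.48 times, those with 5 to 9 peaks 2.34 times and those with 10 or more 2.50 times. A count of at least 5 was reached in 114 bins (9.60%), against 4.08%. The densest 10% of 100 kb bins supplied 29.9% of the excess at this scale, and the densest 20% supplied 55.0%.

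**Figure D5:**
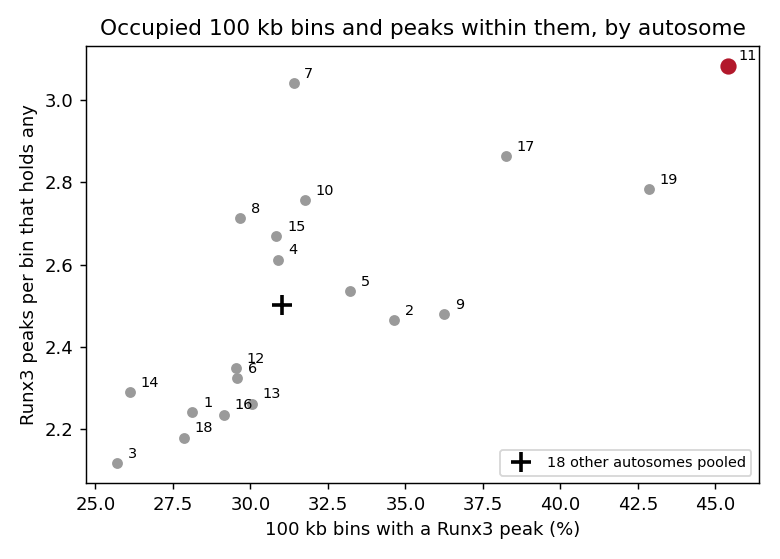
Share of 100 kb bins that hold a Runx3 peak (horizontal axis, %) and mean number of peaks in the bins that hold any (vertical axis) for each autosome, labelled by number; the cross is the 18 other autosomes pooled. Chromosome 11, in red, stands at 45.4% and 3.08 peaks, with chromosome 19 nearest in the share of bins and chromosome 7 nearest in peaks per bin.

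The tenth place among 100 kb bins was tied, so all 12 bins with 10 or more peaks are given; they held 129 peaks, 7.76% of the chromosome, and lay in 10 of the 1 Mb bins. Those from 83.3 to 83.4 Mb, 87.5 to 87.6 Mb and 96.9 to 97.0 Mb held 12 peaks each (95% Poisson interval 6.20 to 21.0). Bins from 46.1 to 46.2, 98.3 to 98.4 and 117.1 to 117.2 Mb held 11 each. The 6 bins with 10 peaks lay from 32.4 to 32.5, 68.2 to 68.3, 97.6 to 97.7, 115.0 to 115.1, 115.2 to 115.3 and 117.6 to 117.7 Mb. The fullest 100 kb bin on any autosome, on chromosome 10, held 19 peaks, and 13 of the other autosomes had a fuller one than chromosome 11. Of these 12 bins, those at 32.4 and 46.1 Mb lay in the sparser part before 50 Mb, in 1 Mb bins of 18 peaks each.

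Peaks within 1 Mb bins were also counted over the 10 inner bins of 100 kb, for bins of like count. In bins of 5 to 9 peaks, 3.44 ± 1.26 inner bins were occupied (SD over 16 bins), against 3.71 ± 1.16 on the other autosomes (432 bins). In bins of 10 to 19 peaks the values were 5.63 ± 1.64 (27 bins) and 5.86 ± 1.51 (438 bins). In bins of 20 to 29 peaks they were 7.47 ± 1.28 (17 bins) and 7.33 ± 1.35 (160 bins), and in bins of 30 to 60 peaks 8.74 ± 0.991 (19 bins) and 8.58 ± 1.25 (86 bins). The sign of the difference thus changed between the classes.

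The fullest inner bin of the same classes held 3.69 ± 1.58, 5.37 ± 2.10, 6.53 ± 1.55 and 8.74 ± 2.35 peaks on chromosome 11. On the other autosomes it held 3.19 ± 1.14, 4.97 ± 1.76, 7.39 ± 2.30 and 9.83 ± 2.82. In the 2 sparser classes the mean was higher on chromosome 11, and in the 2 denser ones it was lower. These differences were not tested.

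Neighbouring peaks on chromosome 11 were a median of 17.9 kb apart from midpoint to midpoint, against 24.7 kb on the other autosomes. Neighbours at most 10 kb apart made up 37.1% (616 of 1661 pairs), against 31.3%, with chromosome 7 close behind at 36.6%. Gaps shorter than 100 bp were also most frequent on chromosome 11, at 3.07% of pairs against 1.51% to 2.30% on the other autosomes singly. After neighbours with gaps of up to 1000 bp were joined, 1489 peaks remained, their density ratio was 1.78, and 29.4% of neighbours lay within 10 kb, against 23.8%.

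Chaining neighbours at most 10 kb apart gave 27 stretches of 5 or more peaks. They held 185 peaks, 11.1% of the chromosome, against 8.53% of the peaks on the other autosomes, and 3 autosomes had a higher share, up to 12.1% on chromosome 8. With the close neighbours joined first, the share was 4.16%, against 4.25% on the other autosomes, so the difference in stretches was not kept. The stretches did not carry the excess: without their peaks the density was 12.4 per Mb, against 7.11, and chromosome 19 was next at 10.8. With every chain counted as a single site the density was 8.82 sites per Mb, against 5.34, and with chains at 50 kb it was 3.57, against 2.61. In both counts chromosome 11 ranked first.

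The 27 stretches lay in 20 different 1 Mb bins and in 10 of the 13 segments of 10 Mb. Of these stretches, 21 were in bins with 20 or more peaks, which held 66.7% of all peaks on the chromosome. A stretch also adds its own peaks to the count of its bin. The longest stretch held 15 peaks in 47.3 kb, from 96964916 to 97012181. Stretches of 12 peaks lay from 83340504 to 83383336 (42.8 kb) and from 87550729 to 87578528 (27.8 kb). Those with 9 peaks lay from 32432601 to 32471599 and from 69804179 to 69843138. Stretches of 8 peaks lay from 107304949 to 107341123, from 117638339 to 117653945 and from 117995548 to 118018209. The most compact of these 8 stretches measured 15.6 kb. The other 19 held 5 to 7 peaks each.

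The longest gap between peaks on this chromosome, from 35652207 to 40416592, measured 4.76 Mb, the shortest such maximum among the 19 autosomes, and 34 autosomal gaps were longer, up to 13.02 Mb on chromosome 15. The next longest ran from 11772906 to 16407873 (4.63 Mb), from 90500119 to 93746063 (3.25 Mb), from 40569041 to 42987826 (2.42 Mb) and from 46250919 to 48601300 (2.35 Mb). Of these 5, 4 lay before 50 Mb. There were 8 gaps over 2 Mb in all, 6.74 per 100 Mb of span, and chromosomes 9, 13, 15 and 19 had fewer both in number and per Mb, down to 1 gap on chromosome 19. On chromosome 13 the longest gap was 4.83 Mb, so the lowest maxima were close together.

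Peak width differed little between chromosome 11 and the rest. The median was 613 bp (interquartile range 512.5 to 786 bp), against 604 bp (506 to 780 bp), and 183 peaks (11.01%) were wider than 1000 bp, against 10.5%. On chromosome 11 the median was 600 bp in 1 Mb bins with 1 to 9 peaks, 611 bp in those with 10 to 19 and 615.5 bp in those with 20 or more. On the other autosomes the same classes had medians of 594, 597 and 615 bp. The ratio of covered length per Mb of span to that of the other autosomes was 1.83.

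The widest peak of the chromosome, from 74643701 to 74647035, measured 3335 bp, 5.44 times the median, with 2 other peaks within 50 kb. The next 4 measured 2148 bp (69484189 to 69486336), 1959 bp (32452913 to 32454871), 1937 bp (72420279 to 72422215) and 1927 bp (70603743 to 70605669). The peak of 1959 bp lay inside the stretch of 9 peaks at 32.4 Mb and had 9 others within 50 kb. The other 4 of the 5 lay between 69 and 75 Mb.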

How the data were processed

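Reads of 50 bp from fragments of about 200 bp were aligned with ELAND, per the labels' protocols, and the submitters' processing notes name CASAVA 1.8.2 and build mm9. The peak caller, its threshold and its use of the control library are not stated in the labels. The authors deposited 1 peak list without a header, with chromosome, start (counted from 0, printed counted from 1) and end, and no score or count per peak. The name of the list contains the words 'to small', which are not explained. Whether it is the full set of calls is not stated, and a reduced set would change each count.

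Peaks were assigned by midpoint to bins of 1 Mb and 100 kb counted from position 0, kept from the first to the last bin with a peak. The span of a chromosome runs from its first peak to its last. X was left out of the comparison set. Python 3.11.15, numpy 2.4.6 and scipy 1.17.1 were used. The code of the rank-wise split was run on simulated counts with extreme patterns. Either each bin was doubled, or a few bins were raised far above any seen here, with neighbouring bins independent. That run checks the code and gives no support for the split on this chromosome. Regions named are the 10 fullest bins of either size (12 at 100 kb, with ties), the 5 widest peaks, the 5 longest gaps, runs of dense bins and stretches of 8 or more peaks. The chromosome and these lists were chosen with earlier results of these data known. No test was made: 1 library gives no replicates, and the chromosome was chosen for its count. Intervals cover counting error only and treat peaks as independent. The reference gene table is built on GRCm38, and its coordinates were not used.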

Additional observations from a re-analysis of the deposited data

How the results depend on the processing

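Over 14 alternative settings, chromosome 11 stayed first of the autosomes in peaks per Mb, in density without the densest bins and in occupied 100 kb bins. Many settings leave a given measure untouched, and the chromosome was chosen for its peaks per Mb, so the count of settings is no support. The ratio of peaks per Mb, 1.803, changed in few of them. It was 1.87 for the wider peaks, 1.78 with gaps joined and 1.86 without chromosomes 17 and 19. Of 44 recomputed values, 27 lay within the counting interval of the reported one. All use the same peaks, so this count does not measure agreement between independent data. For the share of the excess the interval is a rough one, because the excess is a difference and not a count. The share of autosomal peaks, 8.60%, became 9.43% without chromosomes 17 and 19, by construction. The density ratio without the densest 10% of bins, 2.06, was 2.21 for peaks at or above the median width, and 2.24 and 3.19 without the densest 20% and 50%. The densest 10% of bins supplied 14.8% of the excess with 2 Mb bins. The densest 5%, 20% and 50% of 1 Mb bins supplied 7.52%, 37.2% and 80.4%. Occupied bins made up 35.3% for the wider peaks, 58.8% at 200 kb and 32.6% at 50 kb, following from fewer peaks or other bin sizes. The share of peaks in stretches, 11.1%, was 3.002% for the wider peaks, 4.16% after joining gaps of up to 1000 bp, 4.33% and 29.6% at chaining distances of 5 and 20 kb, and 31.2% and 4.87% for stretches of at least 3 and 8 peaks. Leaving out single segments, spacing of joined peaks and the split by position were added after the data were seen. No paired analysis was possible because here there is a single library of either kind. Sites too weak to be listed are not counted, and without read depth their number is unknown.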

Other observations

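Neighbouring 1 Mb bins of chromosome 11 had related counts, as on the other autosomes. Pearson's r between the count of a bin and that of the next was 0.48 over 118 pairs of bins, against a median of 0.40 and a range of 0.11 to 0.61 on the other autosomes singly. At a distance of 5 Mb it was 0.13 over 114 pairs, against a median of 0.07. The bins share 1 library, and these values are given as a description.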
